A study of Homo sapiens with 28 samples.

Results

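Translation initiation factors are the proteins that bring an mRNA, the initiator tRNA and the ribosomal subunits together. They were followed here in U2OS, a human osteosarcoma cell line, in a pooled CRISPR knockout screen and in RNA-seq. The members are all genes whose symbol begins with EIF and a digit from 1 to 6, without the kinases named EIF2AK and without EIF1AY. The rule found 50 genes among 19044 tested in the screen and 54 among the 25807 symbols of the RNA table, of which 46 passed the filter on low counts that kept 15391 symbols. The 4 in the RNA table only were EIF3IP1 and the antisense genes EIF1AX-AS1, EIF1B-AS1 and EIF3J-AS1. Of these 4, EIF3J-AS1 passed the filter, so the RNA counts of members include this antisense gene. The screen followed guide RNAs in cells with wild-type p53 (WT) and in a p53 knockout derivative (KO). Each genotype was sampled at the start (T0), after 96 h with the solvent DMSO and after 96 h with 5 µM etoposide, a topoisomerase II poison that breaks DNA, with 3 libraries (A, B and C) in each of 6 groups. The titles call the 96 h DMSO libraries of the screen untreated, while their protocol text names DMSO. RNA came from p53 WT recipient cells at T0 and after 8 h in medium that other U2OS cells had conditioned. The conditioning cells were p53 WT or p53 KO and had been treated with DMSO or with 31.6 µM etoposide, with 2 libraries (A and B) in each of 5 groups. The recipients were p53 WT in every RNA library, so WT and KO in the RNA results name the cells that conditioned the medium. Whether the KO line is a single clone is not given in the sources used here.

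Initiation runs in steps, and the members fall into groups by step. The eIF2 trimer carries initiator tRNA to the small ribosomal subunit and is recharged with GTP by eIF2B, while eIF1, eIF1A and eIF5 control scanning for the start codon on a scaffold of eIF3. The eIF4F complex (cap-binding eIF4E, scaffold eIF4G and helicase eIF4A) recruits mRNA, 4E-binding proteins hold eIF4E back, eIF5B joins the subunits, eIF6 keeps free large subunits apart, and eIF5A, despite its name, acts mainly in elongation and termination. A few members carry the name but act elsewhere, such as EIF4A3 of the exon junction complex.

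Screen libraries held 30.4 to 48.2 M guide counts, with a median of 246 to 395 per guide, and RNA libraries held 16.8 to 20.3 M counts. The members had 285 guides, 6 for each of 36 genes, 5 for each of 13 and 4 for EIF1AX. In the RNA, 5 of 8 osteoblast and osteosarcoma markers had a mean over the 10 libraries of at least 1 CPM (counts scaled to a fixed library size, per M). So did 3 of 3 epithelial, 1 of 3 endothelial and 0 of 3 blood markers (PTPRC reached 1.40 CPM in 1 library). Summed per library, the osteoblast and osteosarcoma markers gave 9037 to 12454 CPM and the epithelial markers 6.64 to 12.6 CPM. Most of the osteoblast and osteosarcoma sum was COL1A1 (7034 to 10140 CPM) and SPARC (1806 to 2227 CPM). COL1A2, BGLAP and SP7 reached at most 1.27, 0.309 and 0.113 CPM. The KO DMSO medium pair of RNA libraries differed more than the other pairs, by a median of 0.171 log2 units per gene against 0.0886 to 0.12. For the members the medians were 0.0925 against 0.0481 to 0.0821. The members' changes that rest on this pair are also given without library A, which leaves library B alone in its group. Library B lay above every library of the other groups for EIF3B (664 CPM, A 520 CPM) and EIF3G (181 CPM, A 146 CPM). Library A did so for EIF5AL1 (5.00 CPM, B 3.45 CPM). The members' values without library B are not given, so this check covers 1 side of the pair.

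In the screen, the level of a gene is the sum of its guide counts, in CPM, and a guide that disables a gene needed for growth is lost over time. Over 96 h in DMSO, guides against 16 of 50 members fell in p53 WT cells and guides against 0 rose (edgeR's quasi-likelihood test, adjusted p under 0.05; DESeq2 and limma also called 0 higher, and 0 were higher at an unadjusted p under 0.05). Of all genes tested, 5.4% fell in this comparison. The median log2 fold change of the members was −0.09 against 0.005 for all genes, and 40 of 50 members lay below 0. The eIF2B group stood lowest, with 4 of its 5 genes lower and a median of −0.30, whereas 6 of 14 eIF3 genes, 2 of 11 eIF4F genes and 0 of 4 genes for 4E-binding proteins fell. These are small changes, between 1.14-fold lower for EIF2B4 and 1.30-fold lower for EIF3J. In 7 of the 16 members that fell, every guide moved down.

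**Figure D1:**
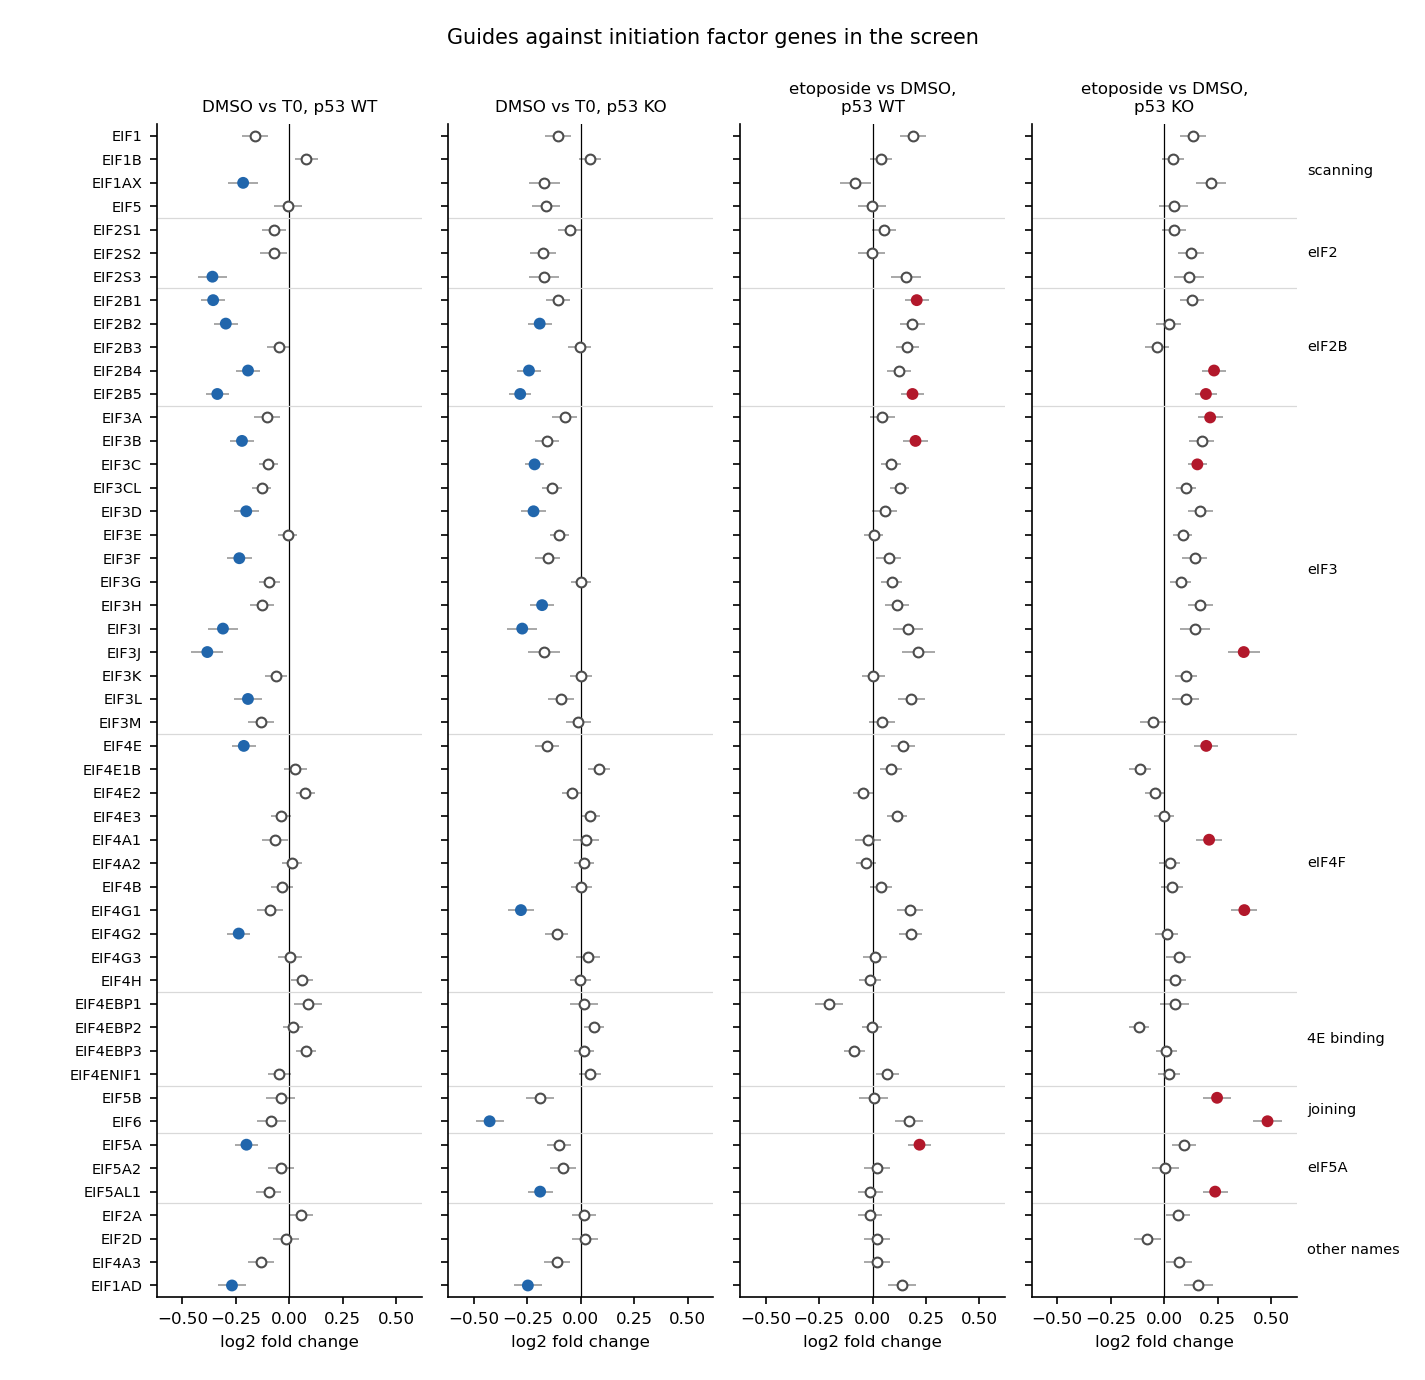
Log2 fold change of summed guide counts for each of the 50 members, arranged by role, in 4 comparisons: 96 h DMSO against T0 in p53 WT and p53 KO cells, and etoposide against DMSO in each. Bars are standard errors from the fit, filled blue points passed the test as lower (16 in WT growth, 11 in KO growth), filled red points as higher (4 and 11 with etoposide), and open points did not pass.

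EIF2B5 encodes the catalytic epsilon subunit of eIF2B. Its guides stood at 57.3, 58.9 and 56.8 CPM in libraries A, B and C of WT T0, at 44.7, 47.4 and 45.1 CPM after DMSO and at 54.2, 51.8 and 50.1 CPM after etoposide. All 3 DMSO libraries lay below all T0 libraries, and the etoposide libraries lay between them without overlap with either. The change in DMSO was −0.34 (SE 0.0529, adjusted p = 8.30e-07), and it passed in 6 of 6 fits that left out 1 library. EIF2B1, the alpha subunit through which eIF2B senses phosphorylated eIF2, stood at 49.6, 47.3 and 49.8 CPM at T0, 37.5, 42.0 and 35.3 CPM in DMSO and 43.3, 45.5 and 43.3 CPM in etoposide. It fell by 0.36 (SE 0.0566, adjusted p = 1.09e-06) over DMSO growth, with 6 of 6 guides lower, by 0.06 to 0.93. The beta subunit gene EIF2B2 fell by 0.30 (SE 0.0566, adjusted p = 6.24e-05) and the delta subunit gene EIF2B4 by 0.19 (SE 0.0543, adjusted p = 0.0135). The gamma subunit gene EIF2B3 had a log2 fold change of −0.05 (SE 0.0548, adjusted p = 0.698) and was the member of the complex that did not pass. EIF2S3, the GTP-binding gamma subunit of eIF2, fell by 0.36 (SE 0.0696, adjusted p = 8.21e-05) with 6 of 6 guides lower, while EIF2S1 (−0.07, adjusted p = 0.533) and EIF2S2 (−0.07, adjusted p = 0.577), the alpha and beta subunits, did not pass.

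Among eIF3 subunits, EIF3J, a loosely attached subunit, had the lowest value, falling by 0.38 (SE 0.0752, adjusted p = 0.000103). Its guides stood at 27.6, 27.0 and 27.7 CPM in WT T0, 21.7, 21.4 and 19.8 CPM in DMSO and 24.9, 24.3 and 23.9 CPM in etoposide, and every DMSO library was below every T0 library. EIF3I, a core subunit, fell by 0.31 (SE 0.0694, adjusted p = 0.000872), and EIF3F by 0.23 (SE 0.0579, adjusted p = 0.00351). EIF3B, the main scaffold (−0.22, adjusted p = 0.00574), EIF3D, which can itself bind a cap (−0.20, adjusted p = 0.0177), and EIF3L (−0.19, adjusted p = 0.0472) also fell. The EIF3L call ended in 5 of the 6 fits that left out a library. EIF3C and EIF3CL are near-identical copies, and whether their guides cut both genes was not checked, so their values are uncertain: EIF3C had −0.10 (SE 0.0448, adjusted p = 0.207) and EIF3CL −0.13 (SE 0.0458, adjusted p = 0.0712).

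In the cap-binding group, guides against EIF4G2, a relative of eIF4G that lacks the eIF4E binding site, fell by 0.24 (SE 0.0535, adjusted p = 0.00101). Those against EIF4E itself fell by 0.21 (SE 0.0548, adjusted p = 0.00556). EIF4A1 (−0.07, adjusted p = 0.607) and EIF4G1 (−0.09, adjusted p = 0.445) did not pass in WT cells. EIF1AD, a nuclear protein related to eIF1A, fell by 0.27 (SE 0.0655, adjusted p = 0.00299). EIF5A fell by 0.20 (SE 0.0552, adjusted p = 0.0112), and EIF1AX fell by 0.22 (SE 0.0715, adjusted p = 0.0484) with a call that ended in each of the 6 fits without 1 library. Scaled to the 999 non-targeting guides, 25 members were lower in place of 16, and the split over all genes moved from 1029 lower and 215 higher to 3035 lower and 20 higher.

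In p53 KO cells, guides against 11 of 50 members fell over 96 h in DMSO and 0 rose, with 0 higher also by DESeq2, by limma and at an unadjusted p under 0.05. The share of all genes that fell was 3.09%, and the members' median was −0.10. EIF6 had the largest drop of the members in KO cells, by 0.43 (SE 0.0658, adjusted p = 1.31e-06). Its guides stood at 40.9, 38.5 and 40.0 CPM at T0 and 29.5, 29.9 and 29.4 CPM in DMSO, and the groups did not overlap. In p53 WT cells EIF6 guides stood at 33.6, 33.1 and 29.8 CPM at T0 and 34.6, 28.1 and 28.1 CPM in DMSO, with overlap and a change of −0.08 (SE 0.0666, adjusted p = 0.551). The 5 EIF6 guides were unequal in KO cells, with log2 fold changes of −1.13, −0.98, −0.43, −0.36 and 0.04.

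Other members that fell in KO cells included EIF2B5 by 0.28 (SE 0.0523, adjusted p = 6.73e-05), EIF2B4 by 0.24 (SE 0.0541, adjusted p = 0.00161) and EIF2B2 by 0.19 (SE 0.0563, adjusted p = 0.0309), so 3 of 5 eIF2B genes were lower. EIF4G1, the eIF4F scaffold, fell by 0.28 (SE 0.0608, adjusted p = 0.00111) with 6 of 6 guides lower. EIF3C fell by 0.22 (SE 0.0446, adjusted p = 0.000507), EIF3I by 0.27 (SE 0.0691, adjusted p = 0.00730), EIF3D by 0.22 (SE 0.0582, adjusted p = 0.0116) and EIF3H by 0.18 (SE 0.0564, adjusted p = 0.0490), making 4 of 14 eIF3 genes. EIF1AD (−0.25, adjusted p = 0.0125) and EIF5AL1, a near-identical copy of EIF5A whose guides were not checked for cutting both (−0.19, adjusted p = 0.0450), completed the list. In 3 of the 11 members that fell in KO cells, every guide moved down. The count of 11 fell to 7 without KO T0 A, to 7 without KO T0 B and to 6 without KO DMSO B. It was 23 when libraries were scaled to non-targeting guides, where all genes split 1570 lower and 13 higher against 588 and 80.

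**Figure D2:**
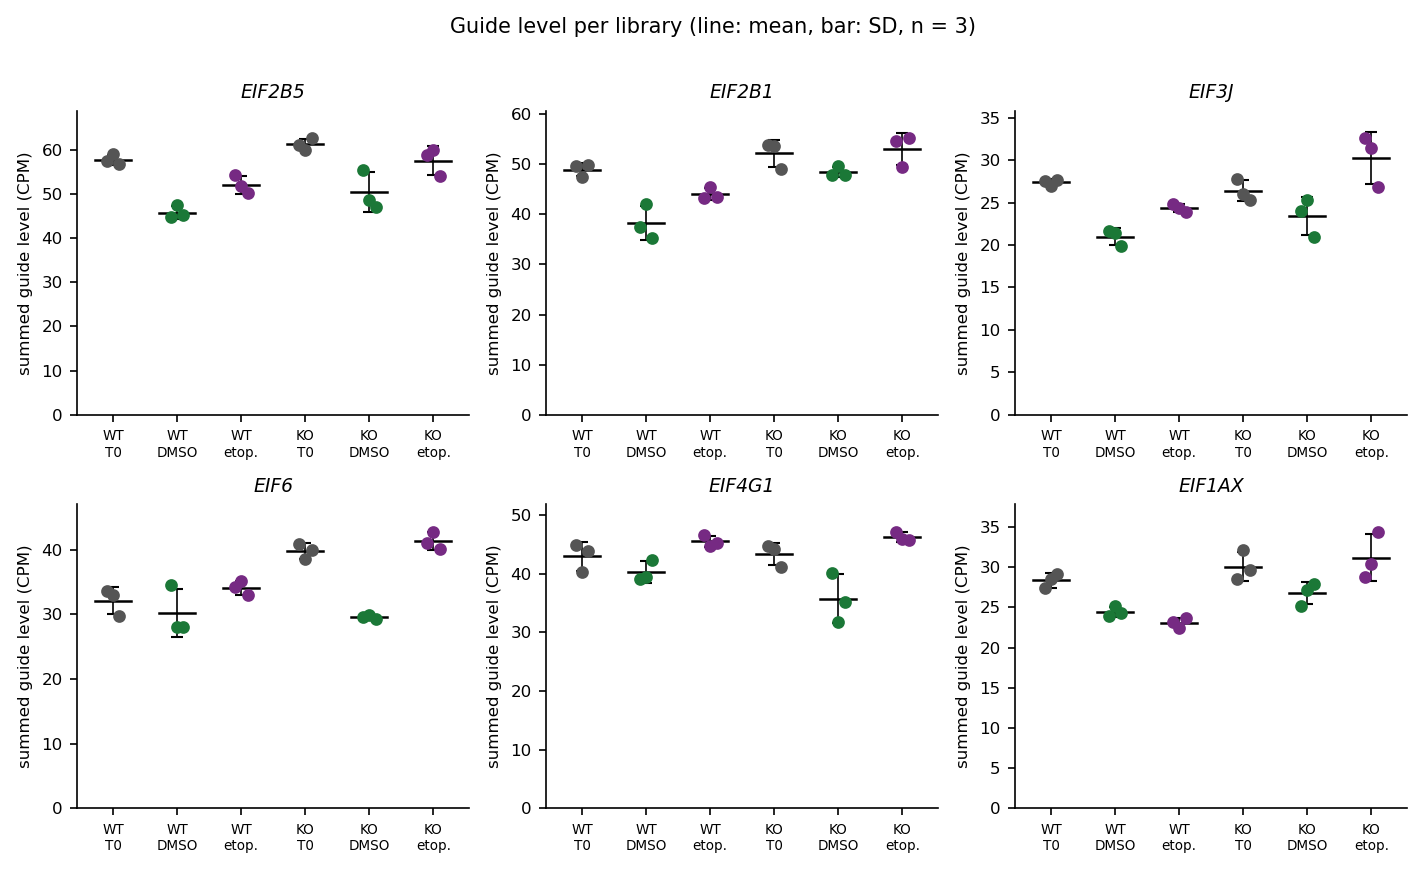
Summed guide counts in CPM for EIF2B5, EIF2B1, EIF3J, EIF6, EIF4G1 and EIF1AX in each screen library, by genotype and condition; the line is the mean and the bar the SD over 3 libraries. EIF6 guides are at 28.1 to 35.2 CPM in the WT libraries and in KO DMSO, and at 38.5 to 42.8 CPM in KO T0 and KO etoposide.

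The losses in WT and KO cells come from separate libraries. They shared 6 genes, EIF1AD, EIF2B2, EIF2B4, EIF2B5, EIF3D and EIF3I, which were 37.5% of the WT list and 54.5% of the KO list. Across the 50 members the log2 fold changes of WT and KO had a Pearson r of 0.61 (0.53 over all 19044 genes), and 42 of 50 had the same sign. The difference between genotypes was tested directly, and 0 of 50 members passed, against 0.00525% of all genes. DESeq2 and limma also called 0, and 4 members had an unadjusted p under 0.05, 2 in each direction. The KO-minus-WT difference had its smallest p for EIF6, at −0.34 (SE 0.0936, adjusted p = 0.215). It was 0.25, adjusted p = 0.355 for EIF2B1, −0.19, adjusted p = 0.581 for EIF4G1, 0.21, adjusted p = 0.649 for EIF3J and 0.19, adjusted p = 0.654 for EIF2S3. A loss that passed in 1 genotype and not in the other is therefore not shown to differ between them.

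**Figure D3:**
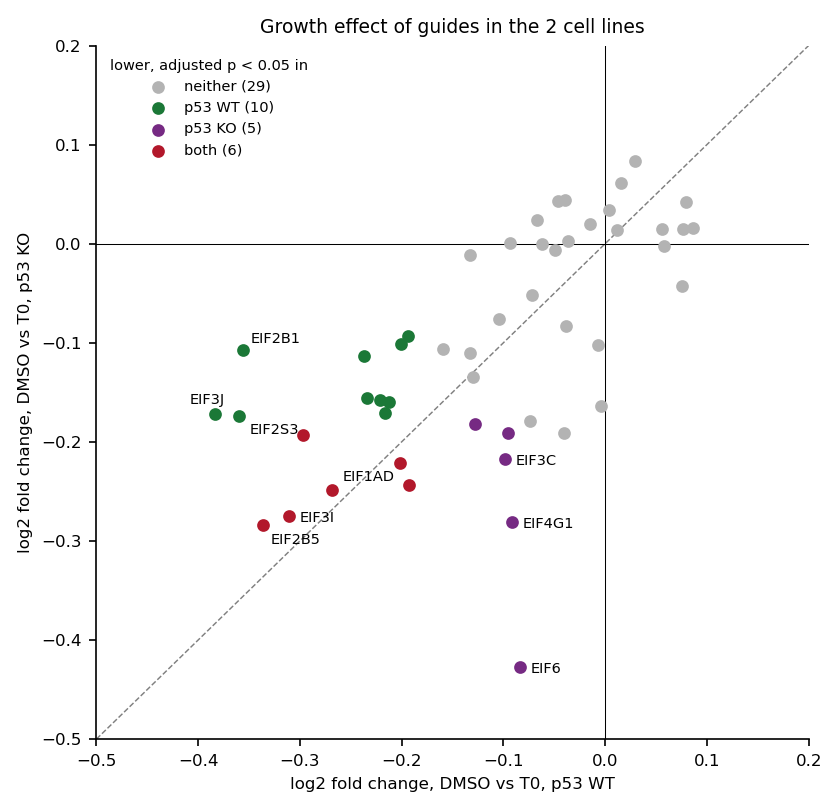
Log2 fold change of 96 h DMSO against T0 in p53 WT cells (horizontal) and p53 KO cells (vertical) for the 50 members; colours show whether a member passed the test in neither (29), in WT (10), in KO (5) or in both (6). Dashed is equality: EIF6 and EIF4G1 lie below it, EIF2B1, EIF3J and EIF2S3 above it.

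With etoposide, guides against 4 members were higher than in DMSO in p53 WT cells, and guides against 0 were lower (DESeq2 called 1 lower and 1 was lower at an unadjusted p under 0.05). The share of all genes that were higher was 1.91%. This comparison and the one of DMSO with T0 use the same DMSO libraries, so their values for a member are not independent. The 4 were EIF5A at 0.22 (SE 0.0553, adjusted p = 0.0107), EIF2B1 at 0.21 (SE 0.0571, adjusted p = 0.0265), EIF2B5 at 0.19 (SE 0.0533, adjusted p = 0.0344) and EIF3B at 0.20 (SE 0.0573, adjusted p = 0.0346). In 2 of these 4 members, every guide was higher. EIF4G2, at 0.18 (SE 0.0537, adjusted p = 0.0532), lay just outside the threshold. The count was small and moved with single libraries: 2 without DMSO A, DMSO C, etoposide B (1 of them lower) or etoposide C, and 1 without etoposide A. DESeq2 called 7, the fit to the compared libraries alone 1, and scaling to non-targeting guides 15, where all genes split 17 lower and 974 higher against 56 and 363.

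In p53 KO cells, 11 members were higher with etoposide than with DMSO, against 3.05% of all genes, and 0 were lower (0 also by DESeq2 and limma, 2 at an unadjusted p under 0.05). They were 3 of 14 eIF3 genes, 3 of 11 eIF4F genes, 2 of 5 eIF2B genes, both joining factors and 1 of 3 genes of the eIF5A group. EIF6 guides stood at 41.1, 42.8 and 40.2 CPM with etoposide, above all 3 KO DMSO libraries and overlapping with KO T0. The change was 0.48 (SE 0.0665, adjusted p = 2.56e-08), with log2 fold changes of its guides from 0.09 to 1.12. EIF4G1 guides stood at 40.1, 31.8 and 35.2 CPM in DMSO and 47.2, 45.9 and 45.7 CPM with etoposide, a change of 0.37 (SE 0.0613, adjusted p = 3.79e-06). EIF3J rose by 0.37 (SE 0.0749, adjusted p = 0.000298), and EIF6, EIF4G1 and EIF3J passed in each of the fits without 1 library. EIF5B, the GTPase that joins the subunits, rose by 0.25 (SE 0.0669, adjusted p = 0.0151). The others were EIF2B4 (0.23, adjusted p = 0.00313), EIF2B5 (0.20, adjusted p = 0.0156), EIF3A (0.21, adjusted p = 0.0162), EIF3C (0.16, adjusted p = 0.0281), EIF4E (0.20, adjusted p = 0.0208), EIF4A1 (0.21, adjusted p = 0.0235) and EIF5AL1 (0.24, adjusted p = 0.00616). In 5 of the 11 members, every guide was higher. The count of 11 fell to 6 without KO DMSO B and to 6 without KO etoposide B.

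The lists with etoposide shared EIF2B5, which was 25% of the 4 WT genes and 9.09% of the 11 KO genes. Over 50 members the r between genotypes was 0.32, close to 0.31 over all genes. The test of the difference called 0 of 50 members, against 0.0525% of all genes, with 0 by DESeq2, 0 by limma and 12 at an unadjusted p under 0.05. Its lowest adjusted p among the members was 0.178, for EIF6, where the KO-minus-WT difference was 0.31. EIF5AL1 (0.25, adjusted p = 0.237) and EIF1AX (0.30, adjusted p = 0.245) came next, followed by EIF4EBP1 (0.25, adjusted p = 0.302) and EIF4A1 (0.23, adjusted p = 0.302).

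Set against T0 rather than DMSO, the members changed little with etoposide. In WT cells EIF1AX was lower, by 0.30 (SE 0.0722, adjusted p = 0.0151), as 1 of 50 members against 0.788% of all genes. Its guides stood at 27.4, 28.5 and 29.2 CPM at T0 and 23.2, 22.5 and 23.7 CPM with etoposide, and the groups did not overlap. Taken singly, its guides did not all move down. The next in order of p, EIF2S3 (−0.20, adjusted p = 0.213), EIF2B5 (−0.15, adjusted p = 0.251), EIF3F (−0.16, adjusted p = 0.281) and EIF2B1 (−0.15, adjusted p = 0.317), did not pass. The count of 1 became 0 without T0 B, T0 C, or any 1 of the 3 etoposide libraries, and 2 in the fit to the compared libraries alone. In KO cells EIF4A1, the main eIF4F helicase, was higher at 0.23 (SE 0.0598, adjusted p = 0.0226), as 1 of 50 members against 0.378% of all genes. Each of its guides was higher. EIF2B2 (−0.17, adjusted p = 0.147), EIF3J (0.20, adjusted p = 0.225), EIF3A (0.14, adjusted p = 0.335) and EIF3K (0.10, adjusted p = 0.492) followed without passing. The EIF4A1 call was lost without T0 A, T0 B, etoposide B or etoposide C. It was also lost under scaling to non-targeting guides (0.20, adjusted p = 0.0528), where EIF2B2 was lower instead (−0.20, adjusted p = 0.0398) and all genes split 299 lower and 33 higher against 142 and 72.

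The genotypes already differed at T0, where 3 members had higher guide counts in KO than in WT cells, against 2.4% of all genes. These were EIF6 at 0.31 (SE 0.0655, adjusted p = 0.00224), EIF5B at 0.23 (SE 0.0664, adjusted p = 0.0267) and EIF2S2 at 0.21 (SE 0.0611, adjusted p = 0.0299). All 3 KO libraries of EIF6, at 38.5 to 40.9 CPM, were above the 3 WT libraries, at 29.8 to 33.6 CPM. In 1 of the 3 members that passed, every guide was higher. EIF3E (0.13, adjusted p = 0.0796) and EIF4EBP1 (−0.16, adjusted p = 0.131) came next and did not pass. This comparison shares the KO T0 libraries with KO growth, in which EIF6 fell. Without any 1 of the 6 libraries the count was 1 in place of 3, and EIF6 passed in each of those fits. Scaled to non-targeting guides it was 8, and all genes split 155 lower and 1959 higher against 407 and 458.

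Lists of other translation genes were read against the same 5.4% of all genes that fell in WT growth. Of 13 elongation, hypusination and termination factors, 5 fell, among them EEF1G (−0.26, adjusted p = 6.55e-06), EEF2, the translocase (−0.29, adjusted p = 0.000391), and EEF1B2 (−0.29, adjusted p = 0.00649). Of 10 mTORC1 and S6 kinase genes, 2 fell: the kinase MTOR (−0.25, adjusted p = 0.00159) and its partner RPTOR (−0.16, adjusted p = 0.0204). Of 10 mitochondrial translation factors, GFM1 (−0.54, adjusted p = 2.97e-15) and TUFM (−0.28, adjusted p = 1.00e-05) fell. DENR, a factor of recycling and reinitiation, fell as 1 of 18 other initiation and recycling factors (−0.18, adjusted p = 0.0400), near the share of all genes, and 0 of 11 genes of eIF2 phosphorylation passed in either direction. Of the eIF2 kinases, the one with the smallest p was EIF2AK3 (0.10, adjusted p = 0.189).

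In KO growth, where 3.09% of all genes fell, 1 of 13 elongation genes fell (EEF2, −0.30, adjusted p = 0.000403), and RPTOR (−0.27, adjusted p = 2.72e-05) and MTOR (−0.19, adjusted p = 0.0476) were again the 2 of 10 mTORC1 genes. GFM1, a mitochondrial elongation factor, fell as 1 of 10 in its list (−0.16, adjusted p = 0.0440). Its growth difference of KO minus WT was 0.38, adjusted p = 0.00761, the 1 gene of 19044 that passed that test.

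With etoposide against DMSO, RPTOR guides were higher in WT (0.27, adjusted p = 5.75e-05) and in KO cells (0.41, adjusted p = 6.67e-11). MTOR was higher in KO cells (0.23, adjusted p = 0.0109) and had 0.18, adjusted p = 0.0988 in WT cells, and TSC2, an inhibitor of mTORC1, was lower in KO cells (−0.25, adjusted p = 0.000297). In the mTORC1 list 1 of 10 was higher in WT cells, and 2 were higher and 2 lower in KO cells, where 1.18% of all genes were lower. The shares of all genes that were higher were 1.91% in WT and 3.05% in KO cells. GFM1 was higher in WT (0.47, adjusted p = 4.12e-12) and KO cells (0.34, adjusted p = 1.11e-07), as was TUFM (0.19, adjusted p = 0.0122 and 0.24, adjusted p = 0.000474), making 2 of 10 mitochondrial translation factors in each. DENR was higher in WT cells (0.21, adjusted p = 0.0298). The differences of KO minus WT did not pass for RPTOR (0.15, adjusted p = 0.419), TSC2 (−0.15, adjusted p = 0.419), GFM1 (−0.13, adjusted p = 0.517) or DENR (−0.12, adjusted p = 0.668). PPP1R15B, a subunit of an eIF2 phosphatase, was higher in KO cells as 1 of 11 (0.22, adjusted p = 0.00420). From the elongation list, EEF1A2 was higher in KO cells (0.20, adjusted p = 0.0129). EEF1A1, with the smallest p of that list in WT cells, did not pass (0.14, adjusted p = 0.172).

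In the RNA, levels of members are compared with each other per length, as RPKM, which uses the gene lengths in the deposited table. At T0 they ranged from 525 ± 10.5 RPKM (SD, n = 2) for EIF5A to values at 0. EIF1 (342), EIF4G2 (275) and EIF3F (258) followed EIF5A without overlap between neighbours. EIF3L (232) and EIF3H (230.1) came next, and their libraries overlapped. Of the 46 members that passed the filter, the lowest were EIF5A2 at 3.10 RPKM, EIF4E3 at 1.03 RPKM and EIF5AL1 at 0.917 RPKM. The 8 members that did not pass were EIF3C, EIF3CL, EIF4A1, EIF4E1B, EIF4EBP3, EIF3IP1, EIF1AX-AS1 and EIF1B-AS1. EIF4A1 and EIF3CL were listed at 0 in every library and EIF3C at 0 to 4 counts. The read-through gene SENP3-EIF4A1 held 19 to 35 counts, so how reads of these genes were assigned is uncertain, as it is for EIF5A and its copy EIF5AL1. Across 47 members in both tables, leaving out EIF3C, EIF3CL and EIF4A1 for their uncertain read assignment, T0 RPKM and the log2 fold change of guides over DMSO growth had a Spearman rho of −0.28 in WT and −0.28 in KO. Across all 50 it was −0.26 and −0.25, a description over genes that share the same libraries.

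After 8 h in DMSO medium, transcripts of 15 members were higher and 2 lower than at T0 for medium from WT cells (17.8% and 17.6% of all genes), and 21 higher and 2 lower for medium from KO cells (18.1% and 18.7%). The shares of the 46 members were 32.6% higher and 4.35% lower with WT medium, and 45.7% higher and 4.35% lower with KO medium. In bulk RNA, fewer cells of a type and less RNA per cell cannot be told apart. Both comparisons use the same T0 libraries. EIF5B stood at 206 and 202 CPM at T0, 324 and 310.1 CPM in WT DMSO medium and 352 and 369.5 CPM in KO DMSO medium, and the 3 groups did not overlap. Its log2 fold changes against T0 were 0.64 (SE 0.0849, adjusted p = 1.19e-05) and 0.82 (SE 0.0850, adjusted p = 6.70e-07).

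Genes of the scanning step were higher as well, 3 of 4 in each medium. EIF1AX changed by 0.51 in WT medium (adjusted p = 0.000384) and 0.54 in KO medium (adjusted p = 0.000235), and EIF5, the GTPase activator of eIF2, by 0.39 (adjusted p = 0.00120) and 0.49 (adjusted p = 0.000132). EIF2S2 rose by 0.35 and 0.34, with adjusted p of 0.000410 and 0.000536. EIF3J rose by 0.64 and 0.77 (adjusted p = 0.000152 and 2.32e-05), beside its antisense gene EIF3J-AS1 (0.59, adjusted p = 0.00421 in WT medium). The strand setting is not given in the sources used here, so the assignment of reads from any stretch that EIF3J and EIF3J-AS1 share is uncertain. Mean levels at T0, in WT and in KO DMSO medium were 61.9, 96.6 and 105.6 CPM for EIF3J. For EIF3J-AS1 they were 6.58, 9.93 and 7.68 CPM. EIF3I was higher by 0.28 and 0.41, with adjusted p of 0.00427 and 0.000155. EIF4G2 rose by 0.32 (adjusted p = 0.00178) in WT medium. EIF6, at −0.20 in WT medium (adjusted p = 0.0457), and EIF4EBP2, at −0.22 in KO medium (adjusted p = 0.0203), were lower beside EIF5A2, and the EIF6 call ended in each of the 4 fits without 1 library. The total of 17 for WT medium fell to 9 without T0 A, 10 without T0 B and 11 without WT DMSO B. The total of 23 for KO medium fell without T0 A and without T0 B and rose without KO DMSO A, fits that each leave 1 library in a group. With library B alone in the KO DMSO group, EIF5B stood at 0.88, EIF1AX at 0.58, EIF5 at 0.59 and EIF2S2 at 0.37. EIF3J stood at 0.73, EIF3I at 0.46 and EIF4EBP2 at −0.22, while EIF1 (0.22) and EIF4ENIF1 (0.18) lost their call.

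**Figure D4:**
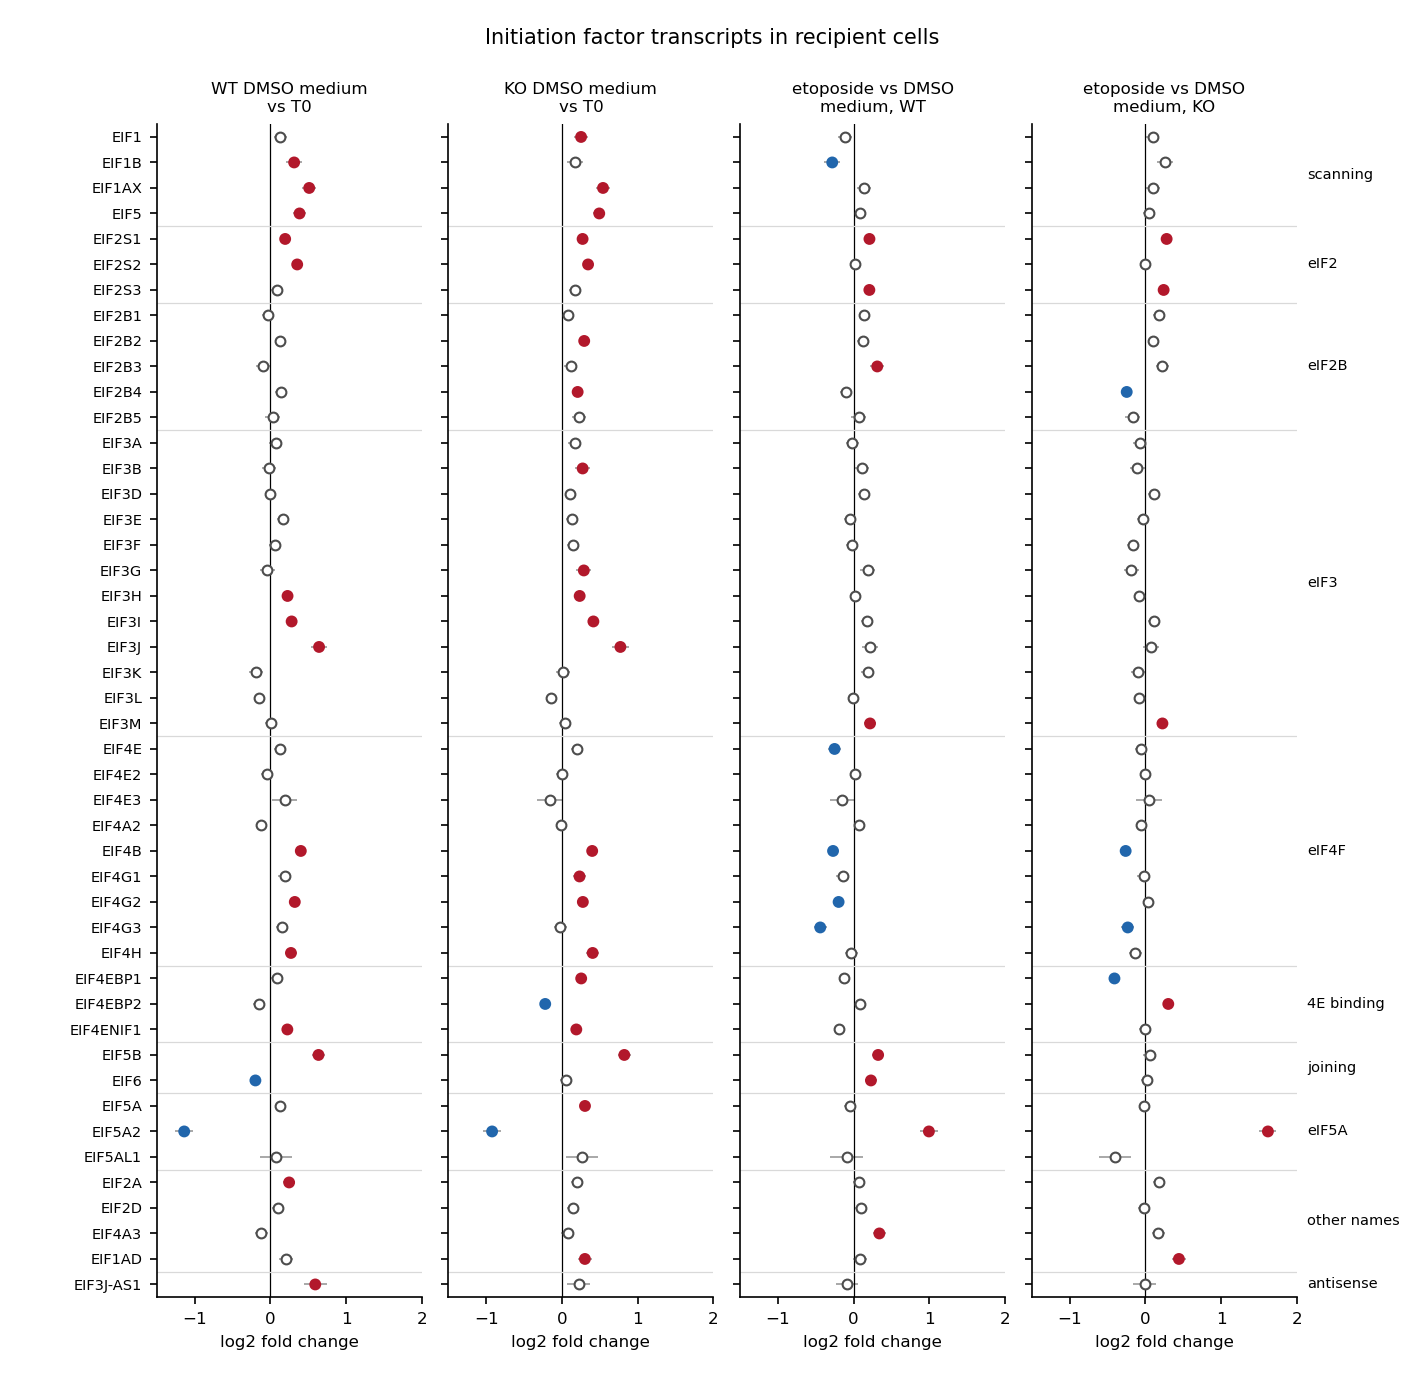
Log2 fold change of transcripts for the 46 members that passed the filter, by role, in 4 comparisons: DMSO medium against T0 and etoposide medium against DMSO medium, each for medium conditioned by p53 WT or p53 KO cells. Bars are standard errors; filled points passed the test (blue lower, red higher), with EIF5A2 lower in both DMSO media and higher in both etoposide media.

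Etoposide medium was compared with DMSO medium for each conditioning genotype, using the DMSO libraries of the comparison above a second time. With WT medium 8 members were higher and 5 lower (16.1% and 18.5% of all genes), and with KO medium 6 were higher and 4 lower (18.8% and 18.4%). The members' own shares were 17.4% higher and 10.9% lower with WT medium, and 13.0% higher and 8.70% lower with KO medium. EIF5A2, EIF4B and EIF2S1 passed in all 4 media comparisons.

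The promoters of these 3 genes are shown because the results below turn on them. Each sequence is the 250 bases before the RefSeq start (GRCh38.p14), 5′ to 3′ on the gene's strand, in lower case, with each E-box (CACGTG, both strands searched) in capitals. The intervals are chr3:170908638-170908887 on the minus strand for EIF5A2, chr12:53006206-53006455 on the plus strand for EIF4B and chr14:67360078-67360327 on the plus strand for EIF2S1.
EIF5A2: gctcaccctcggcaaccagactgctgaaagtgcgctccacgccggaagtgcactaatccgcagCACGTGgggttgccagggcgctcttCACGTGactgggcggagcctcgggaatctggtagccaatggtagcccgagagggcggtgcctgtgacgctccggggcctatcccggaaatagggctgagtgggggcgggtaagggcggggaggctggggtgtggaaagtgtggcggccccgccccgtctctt
EIF4B: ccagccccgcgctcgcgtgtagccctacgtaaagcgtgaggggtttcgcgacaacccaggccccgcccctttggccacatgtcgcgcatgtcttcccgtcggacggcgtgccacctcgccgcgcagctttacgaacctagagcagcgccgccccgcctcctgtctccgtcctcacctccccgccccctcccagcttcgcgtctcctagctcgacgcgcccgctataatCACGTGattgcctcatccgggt
EIF2S1: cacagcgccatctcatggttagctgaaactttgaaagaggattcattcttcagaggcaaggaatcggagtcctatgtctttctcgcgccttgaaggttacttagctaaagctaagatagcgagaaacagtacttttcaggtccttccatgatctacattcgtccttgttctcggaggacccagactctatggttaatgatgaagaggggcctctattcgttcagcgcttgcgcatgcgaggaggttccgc
EIF5A2 holds 2 of these motifs, ending 181 and 156 bases before the start, EIF4B holds 1, ending 16 bases before it, and EIF2S1 holds 0 in this window. Of 54 members, 44 matched a RefSeq promoter by symbol, with 59 entries, and CACGTG was in 11 of these (18.6%) against 6.35% of all 35116 promoters. The ETS motif CCGGAAG was in 9 entries (15.3%, against 8.52%), the GC box GGGCGGG in 27 (45.8%, against 31.5%), the TATA box TATAAA in 2 (3.39%, against 10.7%) and the cAMP response element TGACGTCA in 0 (against 1.65%). A match describes the letters and no binding.

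EIF5A2, a paralog of EIF5A that is low in most tissues, had the largest changes of the 46 members in these 4 comparisons. It stood at 15.8 and 18.5 CPM at T0, at 7.65 and 7.94 CPM in WT DMSO medium and at 8.89 and 9.21 CPM in KO DMSO medium. In etoposide medium it stood at 15.8 and 15.3 CPM for WT and 28.4 and 27.3 CPM for KO conditioning cells. The DMSO libraries were below all others, WT etoposide medium was at or below T0, and KO etoposide medium was above every other group without overlap. Against T0 it fell by 1.14 (SE 0.119, adjusted p = 6.23e-07) in WT DMSO medium and by 0.92 (SE 0.117, adjusted p = 6.82e-06) in KO DMSO medium. Etoposide medium against DMSO medium gave 0.99 (SE 0.120, adjusted p = 3.17e-06) for WT, which is 1.99-fold higher, and 1.62 (SE 0.112, adjusted p = 1.64e-09) for KO, which is 3.07-fold higher. The calls held in each fit without 1 library.

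EIF4B, a cofactor of the eIF4A helicase, moved the other way. It stood at 320.5 and 319 CPM at T0, 421 and 424 CPM in WT DMSO medium and 408 and 435 CPM in KO DMSO medium. In etoposide medium it stood at 334 and 366 CPM (WT) and 362 and 343 CPM (KO), below every DMSO library and above T0. Its log2 fold changes were 0.40 (SE 0.0706, adjusted p = 0.000211) and 0.40 (SE 0.0706, adjusted p = 0.000229) for DMSO medium against T0. They were −0.27 (SE 0.0704, adjusted p = 0.00561) and −0.26 (SE 0.0704, adjusted p = 0.00704) for etoposide against DMSO medium. EIF2S1, the eIF2 subunit that stress kinases phosphorylate, was at 159 and 164 CPM at T0, 182 and 188 CPM in WT DMSO medium and 191 and 198 CPM in KO DMSO medium. It was at 217 and 210.3 CPM in WT etoposide medium and 230.0 and 244 CPM in KO etoposide medium. The etoposide media were above the DMSO media and these above T0, with changes against DMSO medium of 0.21 (SE 0.0682, adjusted p = 0.0234) for WT and 0.28 (SE 0.0681, adjusted p = 0.00292) for KO. The WT calls of EIF2S1 ended in every fit that left out 1 of the compared libraries. Without KO DMSO A, the values for KO DMSO medium against T0 were −0.87 for EIF5A2, 0.47 for EIF4B and 0.32 for EIF2S1. Those for KO etoposide against DMSO medium were then 1.57, −0.33 and 0.23, with library B alone as the KO DMSO group.

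**Figure D5:**
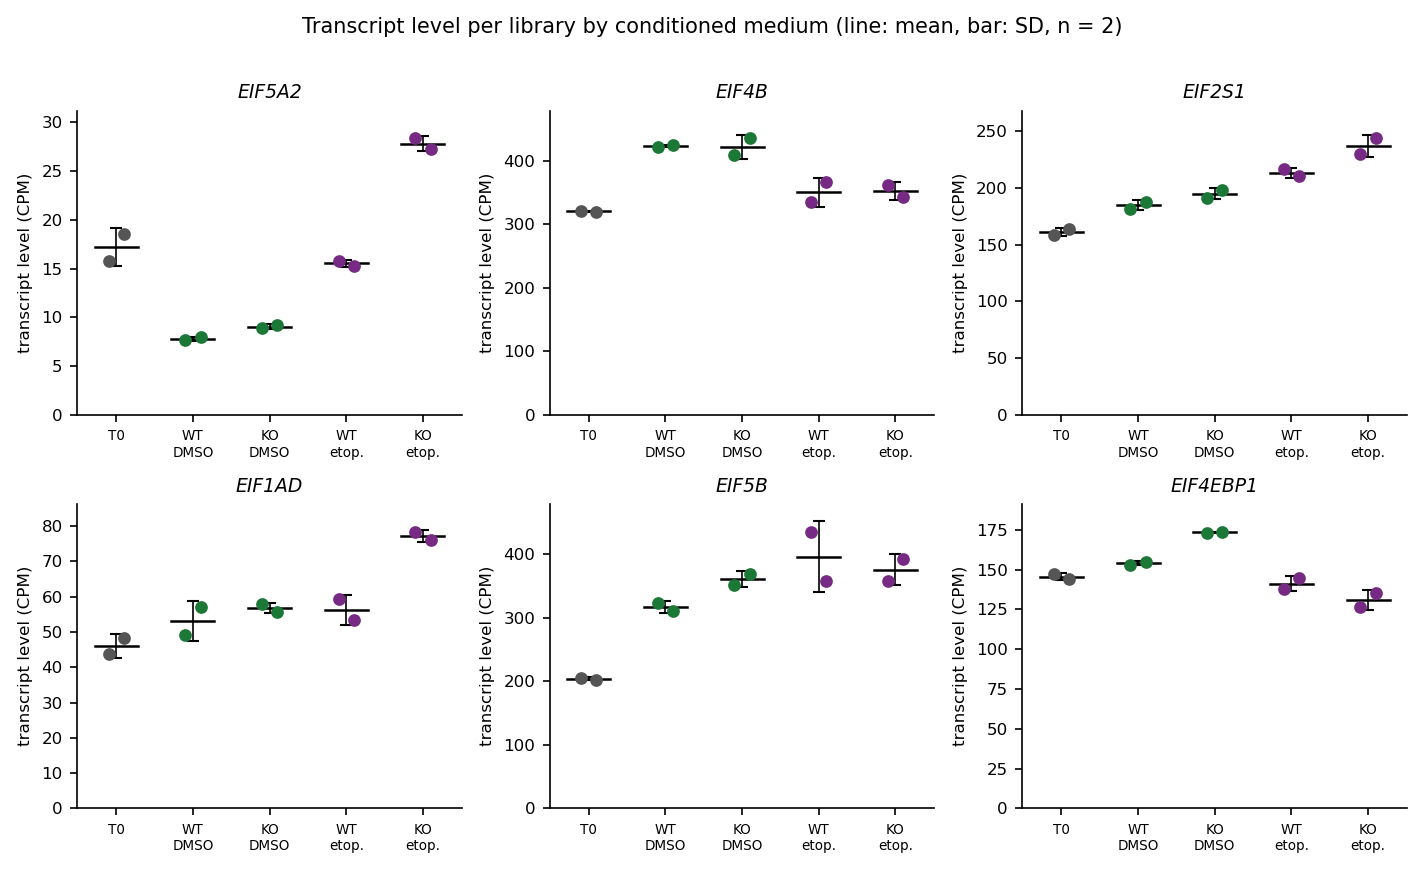
Transcript levels in CPM of EIF5A2, EIF4B, EIF2S1, EIF1AD, EIF5B and EIF4EBP1 in each of the 10 RNA libraries, by medium; the line is the mean and the bar the SD over 2 libraries. EIF5A2 is near 8 to 9 CPM in the DMSO media, near 15 to 19 CPM at T0 and in WT etoposide medium, and 27.3 to 28.4 CPM in KO etoposide medium.

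The eIF4F group was the one with most lower members in WT etoposide medium, 4 of 9 with 0 higher, where 18.5% of all genes were lower. EIF4G3, a paralog of the eIF4G scaffold, fell by 0.44 (SE 0.0829, adjusted p = 0.000398), and EIF4E by 0.25 (SE 0.0823, adjusted p = 0.0236), with EIF4B above and EIF4G2 (−0.20, adjusted p = 0.0396). The other lower member was EIF1B (−0.28, adjusted p = 0.0460). By DESeq2, EIF4E (adjusted p = 0.0556) and EIF1B (adjusted p = 0.0853) did not pass, while EIF4B, EIF4G2 and EIF4G3 did. Higher beside EIF5A2 and EIF2S1 were EIF4A3 (0.34, adjusted p = 0.00468), EIF5B (0.32, adjusted p = 0.00566), EIF2B3 (0.31, adjusted p = 0.0118), EIF6 (0.23, adjusted p = 0.0228), EIF3M (0.22, adjusted p = 0.0311) and EIF2S3 (0.21, adjusted p = 0.0370). EIF6, EIF2S3, EIF4G2 and EIF1B passed in 0 of the 4 fits without 1 library. The count of 13 fell to 5 without WT DMSO A, 6 without WT DMSO B, 4 without WT etoposide A and 6 without WT etoposide B.

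In KO etoposide medium the 4E-binding proteins split. EIF4EBP1, the main mTORC1-controlled inhibitor of eIF4E, stood at 173 and 174 CPM in KO DMSO medium and 126 and 136 CPM in KO etoposide medium, and fell by 0.41 (SE 0.0689, adjusted p = 0.000123). EIF4EBP2 rose by 0.30 (SE 0.0710, adjusted p = 0.00228). EIF1AD stood at 57.8 and 55.7 CPM in KO DMSO medium and 78.4 and 76.0 CPM in KO etoposide medium, a rise of 0.44 (SE 0.0879, adjusted p = 0.000535). Also called were EIF2B4 (−0.24, adjusted p = 0.0133), EIF4G3 (−0.23, adjusted p = 0.0355), EIF2S3 (0.24, adjusted p = 0.0144) and EIF3M (0.23, adjusted p = 0.0224). With library B alone in the KO DMSO group, EIF4EBP1 stood at −0.43, EIF4EBP2 at 0.30 and EIF1AD at 0.45. EIF2B4 then stood at −0.32, EIF4G3 at −0.28, EIF2S3 at 0.22 and EIF3M at 0.22. The count of 10 rose to 19, of which 12 lower, without KO DMSO A, fell to 6 without KO etoposide B, and was 5 in the fit to the compared libraries alone.

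Higher in both etoposide media were EIF2S1, EIF2S3, EIF3M and EIF5A2, 50% of the WT list and 66.7% of the KO list. Lower in both were EIF4B and EIF4G3, 40% and 50%. Across the 46 members the r between the media was 0.72 (0.76 over all genes), with 34 of 46 of the same sign. The difference between the 2 effects was tested, and edgeR called 0 members, against 2.12% of all genes, with 9 at an unadjusted p under 0.05 and 1 by DESeq2. EIF5A2 had 0.63 (SE 0.166, adjusted p = 0.0527) for KO minus WT and EIF1B 0.54 (SE 0.149, adjusted p = 0.0578). EIF1AD (0.36, adjusted p = 0.126), EIF4EBP1 (−0.28, adjusted p = 0.128) and EIF3G (−0.37, adjusted p = 0.164) followed. The count was 3 without the filter on low counts. It also rose without KO DMSO A or without KO DMSO B, each of which leaves 1 library in that group. Without A, EIF1B stood at 0.69, EIF5A2 at 0.58, EIF3G at −0.54, EIF4EBP1 at −0.31 and EIF1AD at 0.37.

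Within etoposide media, 6 members were higher with KO than with WT conditioning cells, against 8.5% of all genes. EIF5A2 was 1.79-fold higher, at 0.84 (SE 0.105, adjusted p = 4.81e-05). EIF1AD had 0.46 (SE 0.0880, adjusted p = 0.00214), EIF1B 0.40 (SE 0.105, adjusted p = 0.0162) and EIF1, the start codon gatekeeper, 0.33 (SE 0.0913, adjusted p = 0.0219), so 2 of 4 scanning genes were higher. EIF5A (0.22, adjusted p = 0.0372) and EIF4E (0.26, adjusted p = 0.0390) completed the list. EIF1B, EIF5A and EIF4E passed in 0 of the 4 fits without 1 library. The list shrank to 3 without WT etoposide A, 1 without WT etoposide B, 2 without KO etoposide A and 3 without KO etoposide B. The authors' deposited table of KO against WT media, which does not name its libraries, has log2 fold changes that track this comparison across genes (r = 0.99997, over the same RNA). In the authors' deposited table there are 46 members, of which 5 have an adjusted p under 0.05, all higher: EIF1, EIF1AD, EIF1B, EIF5A and EIF5A2.

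Within DMSO media, 0 members differed between KO and WT conditioning cells by edgeR, against 1.56% of all genes, with 12 at an unadjusted p under 0.05 and 2 by DESeq2. The smallest adjusted p belonged to EIF6 (0.25, adjusted p = 0.0770) and EIF3G (0.33, adjusted p = 0.0807). EIF3B (0.29, adjusted p = 0.102), EIF5A (0.18, adjusted p = 0.155) and EIF3J-AS1 (−0.37, adjusted p = 0.163) followed. The count was 3 without the filter. It also rose without KO DMSO A, of the pair that differed most, which leaves library B alone in that group. Without A, EIF3G stood at 0.51, EIF3B at 0.49, EIF6 at 0.32, EIF5A at 0.24 and EIF3J-AS1 at −0.45. For KO DMSO medium these values rest on 1 library.

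In the list of 11 genes of eIF2 phosphorylation and its readout, 2 were higher, 3 lower and 6 not past the test in each etoposide medium against DMSO medium. Over all genes 16.1% were higher and 18.5% lower for WT, and 18.8% and 18.4% for KO. PPP1R15A, the stress-induced subunit of an eIF2 phosphatase, rose in etoposide medium (0.57, adjusted p = 9.86e-06 for WT and 1.29, adjusted p = 1.55e-10 for KO), and PPP1R15B rose too (0.34, adjusted p = 0.00161 and 0.53, adjusted p = 1.62e-05). ATF4, the transcription factor translated when eIF2 is phosphorylated, fell at the transcript level (−0.44, adjusted p = 7.29e-05 and −0.50, adjusted p = 1.86e-05). PPP1R15A also passed the test of the difference between media (0.71, adjusted p = 0.00216), as 1 of 11 against 2.12% of all genes.

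The next lists are read against the same shares of all genes. These were 16.1% higher and 18.5% lower for WT medium, and 18.8% and 18.4% for KO medium. Of 10 mTORC1 and S6 kinase genes, 1 fell in WT etoposide medium (RPTOR, −0.51, adjusted p = 1.08e-05), and 3 fell and 1 rose in KO etoposide medium (RPTOR, −0.44, adjusted p = 5.12e-05). LARP1, which binds mRNAs of the translation machinery, fell in both (−0.52, adjusted p = 1.09e-05 and −0.25, adjusted p = 0.00702), among 18 other initiation and recycling factors of which 2 fell and 1 rose with WT medium and 3 fell and 3 rose with KO medium. Of 13 elongation, hypusination and termination factors, 1 fell and 3 rose with WT medium and 2 fell and 0 rose with KO medium, including EEF2K, the kinase that inhibits EEF2 (−0.41, adjusted p = 0.00809 and −0.50, adjusted p = 0.00172). Of 10 mitochondrial translation factors, 0 passed with WT medium and MTRF1L rose with KO medium (0.28, adjusted p = 0.0159).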

How the data were processed

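Guide RNAs were counted in 18 screen libraries and transcripts in 10 RNA libraries, and the authors deposited raw read counts, per guide and per gene symbol. Per the submitters' processing notes, Bowtie2 was used on the screen reads, DESeq2 on both assays and hg19 as the RNA build, with no version stated. Not given in the sources used here are the guide library and, for the RNA, the aligner, the annotation and the strand setting. The authors' deposited table gives log2 fold changes and p-values, with DESeq2's column names per the file headers, and is named where it is used.

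Guide counts were summed per gene, for 19044 genes with at least 3 guides. After TMM scaling, each table was tested with edgeR's quasi-likelihood test (two-sided) over all libraries of the assay (12 and 5 residual degrees of freedom), the RNA after the filter filterByExpr. Benjamini-Hochberg adjustment ran over all genes tested, with a threshold of 0.05. SE is the standard error of a log2 fold change. Values of single guides are log2 fold changes from an edgeR quasi-likelihood fit over all guides and carry no test here. The tools were edgeR 4.0.16, DESeq2 1.42.0 and limma 3.58.1 in R 4.3.3, and the scripts were tested on simulated counts. Promoters came from RefSeq, build GRCh38.p14, matched by symbol.

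The members follow the naming rule, and they and the gene lists were chosen with earlier results of these data known. In each comparison the text names the members past the threshold and the 5 with the smallest p, with other members of a complex named to complete it, and up to 3 genes with the smallest p from each list of other translation genes. Other settings tried were scaling to the 999 non-targeting guides, DESeq2, limma on guide means, guides with a mean count of at least 100, fits to the compared libraries alone, no filter, a replicate block and leaving out each library. No label states that the lettered libraries are separate cultures. The p-values therefore measure the spread between these samples alone, which may be technical. A check of the sample labels is not reported here.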

Additional observations from a re-analysis of the deposited data

How the results depend on the processing

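The counts of members called in the 16 comparisons were recomputed under 89 other settings and 98 fits without 1 library. They stayed within 1.5 times the first count in 77 and 55 of these. Scaling to the non-targeting guides gave 25 for WT growth, 23 for KO growth, 15 for WT etoposide against DMSO and 8 for KO against WT at T0. DESeq2 gave 7 for WT etoposide against DMSO, 1 for the difference between the media effects and 2 for KO against WT DMSO medium, and testing without the filter on low counts gave 3 for that difference and 3 for KO against WT DMSO medium. Fits to the compared libraries alone gave 1 for WT etoposide against DMSO, 2 for WT etoposide against T0 and 5 for KO etoposide medium against KO DMSO medium. Without 1 library in turn, the screen counts ranged from 12 to 13 (WT growth), 6 to 10 (KO growth), 1 to 3 (WT etoposide against DMSO), 6 to 11 (KO etoposide against DMSO), 0 to 1 (etoposide against T0 in either genotype), 1 to 1 (KO against WT at T0) and 0 to 0 (both differences between genotypes). The RNA counts ranged from 9 to 12 (WT DMSO medium against T0), 12 to 27 (KO DMSO medium against T0), 4 to 6 (WT etoposide medium), 6 to 19 (KO etoposide medium), 0 to 8 (difference between the media effects), 1 to 3 (KO against WT etoposide medium) and 0 to 13 (KO against WT DMSO medium). Each RNA fit without 1 library left 1 library in a group, and its count is given without the share of all genes. Same-letter deviations from the group means correlated by −0.046 to 0.172 over 45 pairs in the screen, with 4 above 0.1. Those 4 were between KO groups: T0 with DMSO (A 0.104, C 0.172), T0 with etoposide (A 0.106) and DMSO with etoposide (A 0.101). In the RNA the correlations were −0.037 to 0.103 over 10 pairs of groups, where A and B mirror each other, with 1 above 0.1. Such correlations cannot decide whether libraries of the same letter shared a culture or a batch. The replicate block gave 16 for WT growth, 11 for KO growth, 12 for KO etoposide against DMSO and 22 for KO DMSO medium against T0, and left the other counts as they were. For the single members named, 1322 of 1606 alternatives kept the direction and the side of the threshold, 257 lost the call, 27 gained it and 0 reversed. The cause of these changes was not tested, except that a fit without 1 library or to the compared libraries alone rests on fewer samples.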
